A study of Mus musculus with 12 samples.

Results

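Mouse embryonic stem cells (mESCs) of strain C57BL/6 and genotype Prdm10F/F; Rosa26-CreERT2 were compared by RNA-seq 2 days after 24 h in 50 nM 4-hydroxytamoxifen (OHT) or in the same volume of ethanol (EtOH). The 3 libraries titled Day2_OHT and the 3 titled Day2_EtOH were chosen by title, 6 of the 12 libraries of the series. All 6 carry the floxed exon 5 and the recombinase, which is expressed from the Rosa26 locus and is active only with OHT, so that an effect of OHT or of active recombinase cannot be told apart from loss of the gene. The line was derived on fibroblast feeders and then grown on gelatin with serum and LIF. Nothing says that the 3 libraries of a group came from separate cultures, so p-values measure only the spread between libraries, which may be technical.

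PRDM10 belongs to the PRDM family, whose members join a PR domain to zinc fingers that read DNA. It has a glutamine-rich region of the kind found in activators of transcription. OHT drives the fused recombinase into the nucleus, where it removes the DNA between the loxP sites, after which mRNA and protein made earlier still have to decay. Day 2 is therefore an early time point, and the comparison asks which transcripts had changed by then.

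The 6 libraries held 35017667 to 41409992 expected counts (RSEM's estimates of read pairs per gene, which need not be whole). The first principal component (54.3% of the variance) separated the labels, and the second (21.9%) set Day2_OHT replicate 3 apart from the rest. Of the 10 mESC markers, all were tested, with summed levels of 2687 to 2723 TPM (RSEM's length-scaled abundance) in the libraries labelled EtOH and 2727 to 2900 in those labelled OHT. Of the 10, 5 were called lower and 1 higher, against 10.6% and 9.17% of all genes tested. The lower ones numbered 2 without Day2_EtOH replicate 1, without Day2_OHT replicate 2 or with libraries scaled to total counts. Markers of other cells were at or near 0. The 12 feeder markers summed to 4.62 to 5.38 and 4.91 to 5.59 TPM (10 of 12 under 1 TPM in either group, 1 of them at 0), the 10 of primitive endoderm to 3.09 to 3.79 and 3.79 to 4.33, the 8 of trophectoderm to 2.16 to 2.81 and 2.54 to 2.99, and the 10 of 2-cell-like cells to 0.59 to 0.73 and 0.54 to 1.14. Of these 40 markers 3 passed the minimum mean, and *Cubn*, an endocytic receptor of primitive endoderm, was the 1 called (log2 fold change 0.47, SE 0.17), with groups that overlapped. Its call was lost by edgeR, without the length trend described below (0.24, DESeq2 adjusted p = 0.402) and with any library but Day2_OHT replicate 2 left out. In bulk RNA, fewer cells that express a gene and less RNA per cell cannot be told apart.

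*Prdm10* (chromosome 9, 31280538 to 31381723, plus strand, GRCm38) is the targeted gene. Its normalised counts, which are expected counts divided by each library's size factor, were 759, 817 and 814 with EtOH and 2071, 2211 and 2200 with OHT. The gene-level count was thus higher in every library labelled OHT, by 1.44 on the log2 scale (SE 0.07, DESeq2 adjusted p = 1.37e-105). Removal of 1 exon need not lower a count over the whole gene, so this value does not check the labels. Counts over exon 5 alone were not analysed here, and "with OHT" and "with EtOH" below refer to the labels.

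As examples of the motif letters, the study's designed binding probes and a few promoter matches are given. The study used a 28-base probe holding its motif and a mutated one, and capitals mark the 8 letters that differ between them.
WT probe: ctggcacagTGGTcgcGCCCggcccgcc
MUT probe: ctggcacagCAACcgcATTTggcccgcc
All 8 of these letters in their spacing (TGGTNNNGCCC, either strand) occurred in 1.45% of 32851 RefSeq promoter windows (GRCm38.p6, from 250 bases before a start to 50 after it), and a shorter form (TGGTNNNNNCC, which every match of the longer form also meets) in 13.8%. Among 237 windows of tested genes that overlapped a PRDM10 ChIP-seq peak of the same gene, 45 held the longer form and 125 the shorter one (52.7%). The 5 sites below are examples of matches of the shorter form in windows of bound genes that were over 2-fold lower with OHT. Of such genes, 19 held a match in a window that overlapped their peak. The fixed letters are in capitals, with 9 bases on either side.
*Hap1* (chr11:100356133-100356161, minus strand): cgccacgcgTGGTacagcCCagtggagcc
*Flcn* (chr11:59810036-59810064, plus strand): aagcgtagaTGGTtccggCCgccgagaga
*Dlst* (chr12:85110773-85110801, plus strand): cacggttagTGGTtcgctCCgaacacccc
*Gripap1* (chrX:7789938-7789966, plus strand): actggtcagTGGTtcgctCCgaccttagc
*Ptcd2* (chr13:99344780-99344808, plus strand): ccttccactTGGTgcgctCCaagatggcg
In *Dlst* and *Gripap1* the letters between the fixed ones are the same. A match describes letters, not a site shown to be bound.

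Across genes above the minimum mean, few transcripts had changed over 2-fold by Day 2. Those that had were mostly lower and on the study's list of PRDM10-bound genes, which came from ChIP-seq and not from these libraries. Of 11644 genes with a mean normalised count above 100, 1068 (9.17%) were called higher and 1238 (10.6%) lower, 2306 (19.8%) in all, at a DESeq2 adjusted p below 0.05. Over 2-fold changes were rare, with 7 genes higher (0.0601%) and 52 lower (0.447%), and 51 of the 52 were bound. With no minimum mean more genes were over 2-fold higher, as given in the last section. The size of the change differed with binding, since the median absolute log2 fold change of the called genes was 0.484 for bound genes and 0.228 for the others. At 1.5-fold, 90 of 97 lower genes and 13 of 109 higher genes were bound, while 426 of all 11644 genes tested were bound. Without Day2_EtOH replicate 1 the counts were 615 higher and 586 lower, and without Day2_EtOH replicate 2 697 and 710. The number over 2-fold higher ranged from 2 without Day2_OHT replicate 3 to 16 without Day2_EtOH replicate 3 and was 4 without Day2_EtOH replicate 1, whereas the number over 2-fold lower ranged from 50 to 63. Of all called genes, 46.3% were higher, against 68.5% when libraries were scaled to total counts, with 50 genes over 2-fold lower and 9 over 2-fold higher.

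**Figure D1:**
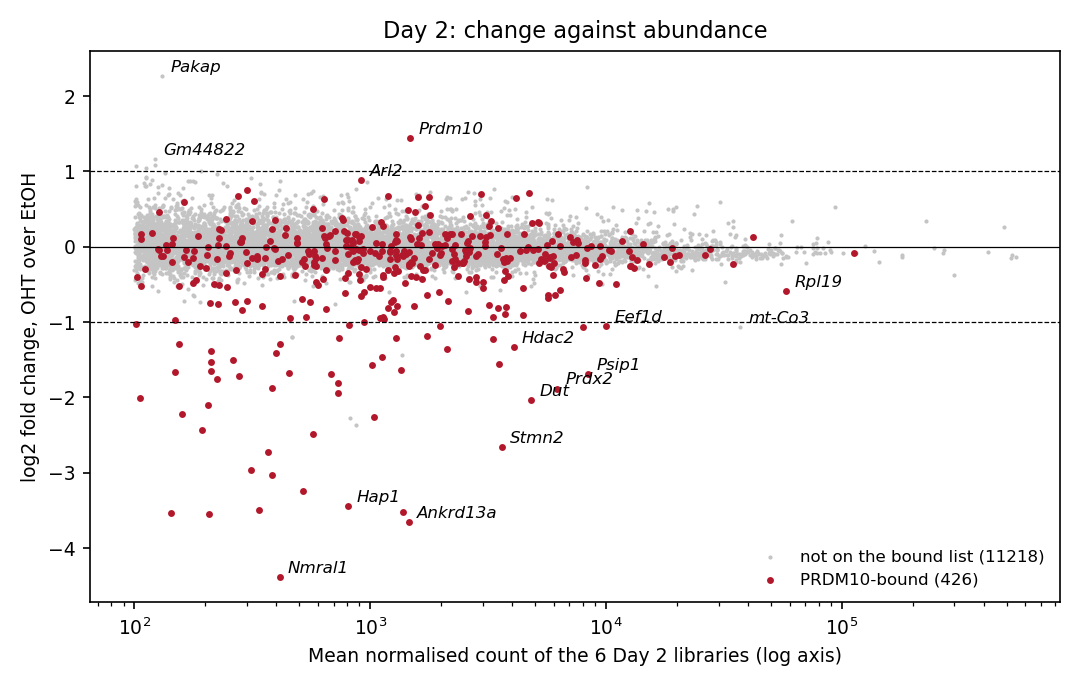
Log2 fold change (OHT over EtOH, vertical axis) of each of 11644 genes against its mean normalised count over the 6 Day 2 libraries (horizontal, log axis), with 426 PRDM10-bound genes in red, the other 11218 in grey, and dashed lines at a 2-fold change. Nearly all genes below the lower line are red, down to *Nmral1* at -4.39, and the few grey points below it are *mt-Co3* and 5 genes that were not called, mostly repeated snoRNA genes.

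The steepest losses left a few percent of the transcript. *Nmral1*, which encodes a sensor of NADPH, had normalised counts of 762, 812 and 793 with EtOH and 37.7, 33.6 and 42.2 with OHT, so that 4.8% of the mean was left (log2 fold change -4.39, SE 0.16, DESeq2 adjusted p = 4.18e-155). *Ankrd13a*, an adaptor that binds ubiquitin on internalised receptors, fell from 2728, 2705 and 2657 to 209, 208 and 227. *Hap1*, a partner of huntingtin in transport along microtubules, fell from 1495, 1480 and 1442 to 144, 139 and 121. In all 3 genes the libraries of a label lay within a narrow band far from those of the other. In total 9 genes fell over 8-fold and 19 over 4-fold. The others over 8-fold were *Madd* (-3.54, SE 0.20), a regulator of Rab GTPases, *Frat2* (-3.53, SE 0.23), an inhibitor of GSK3 in Wnt signalling, *Ptov1* (-3.53, SE 0.08), *Sri* (-3.50, SE 0.15), which encodes the calcium-binding protein sorcin, *Adgrv1* (-3.24, SE 0.12), an adhesion receptor, and *Galnt10* (-3.03, SE 0.13), an enzyme that starts O-linked glycans.

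**Figure D2:**
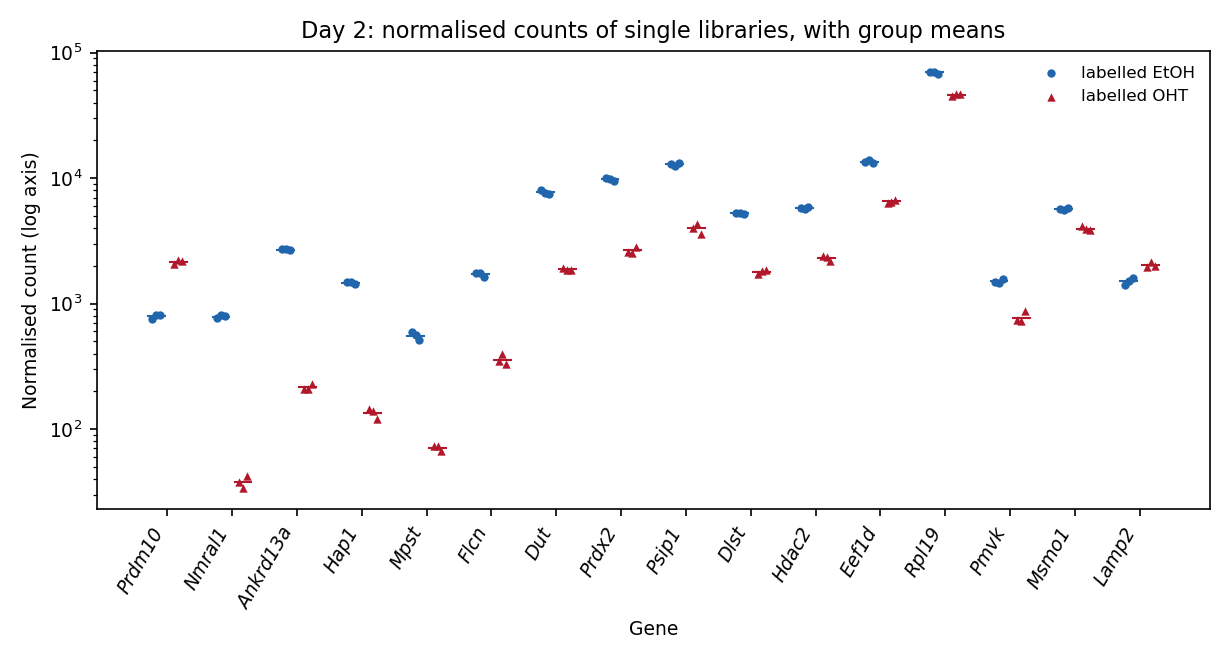
Normalised counts (vertical, log axis) of 16 genes in each Day 2 library, circles for EtOH and triangles for OHT, with a line at the mean of each group of 3. The groups do not overlap for any of the genes, with *Prdm10* and *Lamp2* higher and the other 14 lower in the libraries labelled OHT, and the gap narrows from *Nmral1* (4.8% of the mean left) to *Eef1d* (48.4%).

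The 52 genes came from several processes. In thiol and peroxide chemistry, *Mpst*, which transfers sulfur from mercaptopyruvate, fell from 589, 565 and 510 to 73.5, 72.8 and 67.1 (log2 fold change -2.96, SE 0.14), and *Srxn1*, the sulfiredoxin that restores oxidised peroxiredoxins, from 987, 944 and 986 to 191, 169 and 162 (-2.48, SE 0.10). *Prdx2*, a peroxiredoxin, fell from 9999, 9873 and 9421 to 2595, 2551 and 2814 (-1.88, SE 0.05). Of 26 tested genes of thiol redox and antioxidant defence, 6 were lower and 6 higher (23.1% each, against 10.6% and 9.17% of all genes). The median was 0.008 (-0.008 without Day2_EtOH replicate 3) against -0.028 over all genes tested. It joins 7 bound members, of which 6 were lower and 0 higher, and 19 others, of which 0 were lower and 6 higher (median 0.098). Across the alternatives 6 members were lower and 4 to 9 higher. *Selenow* (-1.29, SE 0.12) and *Selenop* (-1.50, SE 0.14) encode selenoproteins.

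Among metabolic and nuclear enzymes, *Dut*, which removes dUTP and so keeps uracil out of DNA, was abundant and fell from 8022, 7678 and 7495 to 1938, 1861 and 1848 (log2 fold change -2.04, SE 0.05). The other 19 tested genes of deoxynucleotide and pyrimidine synthesis moved less, with 2 further genes lower and 2 higher, against 10.6% and 9.17% of all genes. Without Day2_EtOH replicate 1 or 2, *Dut* was the only gene of the list called lower and 1 was higher. *Dlst*, the succinyl-transferring subunit of the 2-oxoglutarate dehydrogenase complex, fell from 5312, 5254 and 5185 to 1716, 1806 and 1839 (-1.56, SE 0.05). In its list of 23 citric acid cycle and pyruvate dehydrogenase genes 4 were lower (17.4%, against 10.6% of all genes), and 2 without Day2_EtOH replicate 1 or Day2_OHT replicate 2. *Hdac2*, a histone deacetylase, fell from 5804, 5727 and 5893 to 2413, 2337 and 2190 (-1.33, SE 0.05). *Psip1*, which tethers proteins to chromatin, fell from 12916, 12498 and 13142 to 4019, 4326 and 3588 (-1.69, SE 0.06). In each of these genes the groups lay far apart.

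Signalling and transport were also represented. *Flcn*, which with its partners acts on Rag GTPases at the lysosome, fell from 1742, 1751 and 1635 to 348, 393 and 333 (log2 fold change -2.25, SE 0.08), and *Mlst8*, a subunit of both mTOR complexes, changed by -1.88 (SE 0.11). *Ephb2* (-2.73, SE 0.13) and *Robo1* (-1.67, SE 0.11) encode guidance receptors, *Stmn2* (-2.66, SE 0.05) a protein that destabilises microtubules, and *Uchl1* (-1.36, SE 0.06) a ubiquitin hydrolase. *Cln8* (-1.56, SE 0.07) carries newly made lysosomal enzymes out of the endoplasmic reticulum, *Lsr* (-1.94, SE 0.09) is a lipoprotein receptor, *Hyal2* (-1.80, SE 0.09) binds and cuts hyaluronan, *Timm17b* (-1.04, SE 0.08) belongs to the mitochondrial import machinery, and *Cdipt* (-1.21, SE 0.09) makes phosphatidylinositol. Of the genes that the study singled out, *Eef1d* (-1.05, SE 0.04), *Ss18* (-1.23, SE 0.05) and *Selenow* passed the 2-fold line, and *Ube2a* (-0.78, SE 0.07), *Rpl19* (-0.59, SE 0.04) and *Eif3b* (-0.49, SE 0.06) did not. The genes nearest to it were *Tmem198b* (-1.03, SE 0.21) and *Timm17b* inside, and *Por* (-0.99, SE 0.08) and *2310039H08Rik* (-0.98, SE 0.17) outside.

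The rest of the 52 spanned -2.43 to -1.06. From the lowest up they were *Tpbg*, *Ndst2*, *Fam173b*, *Ablim1*, *Sash1*, *Map7d1*, *Pafah1b3*, *Tmem260*, *Nhs*, *Mia2*, *Gripap1*, *Lancl2*, *Epb41l4aos*, *Rnasek*, *Ppt2*, *Ptcd2*, *2410006H16Rik*, *Sept11* and *Oxr1*, which reached -1.06 (SE 0.06) and came to -0.57 with effective lengths as offsets, and *mt-Co3*. *mt-Co3*, a cytochrome oxidase subunit encoded in the mitochondrial genome, was the only gene among the 52 that was not bound, and its value is uncertain. Its counts were 40863, 56202 and 53228 with EtOH and 30491, 14692 and 26608 with OHT (-1.07, SE 0.32, DESeq2 adjusted p = 0.00817), and reads shared with other genes gave a posterior SD of up to 6904 counts. Its adjusted p was 0.0974 without Day2_EtOH replicate 2 and 0.0699 without Day2_EtOH replicate 3. The other 51 were called lower in each of the 13 alternative fits.

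Bound genes as a whole were lower more often than other genes. Of 627 in the files, 426 passed the minimum mean, and 193 of these (45.3%) were called lower and 46 (10.8%) higher. Among the 11218 genes not on the list the shares were 9.32% lower and 9.11% higher. The share of bound genes called higher thus lay near that of the other genes when rises of any size were counted. Over 1.5-fold higher were 13 of the 426 bound genes and 109 of all 11644 genes tested. The counts differed with the position of the peak. Where the nearest annotated start lay within 500 bases of the peak centre, 178 of 315 tested genes (56.5%) were lower and 50 were over 2-fold lower, with a median log2 fold change of -0.22. From over 500 to 5000 bases, 11 of 76 (14.5%) were lower and none over 2-fold (0 at an unadjusted p under 0.05 and 0 by edgeR). Beyond 5000 bases 4 of 35 (11.4%) were lower, 1 of them over 2-fold. Both shares lie close to the 10.6% of all genes tested.

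**Figure D3:**
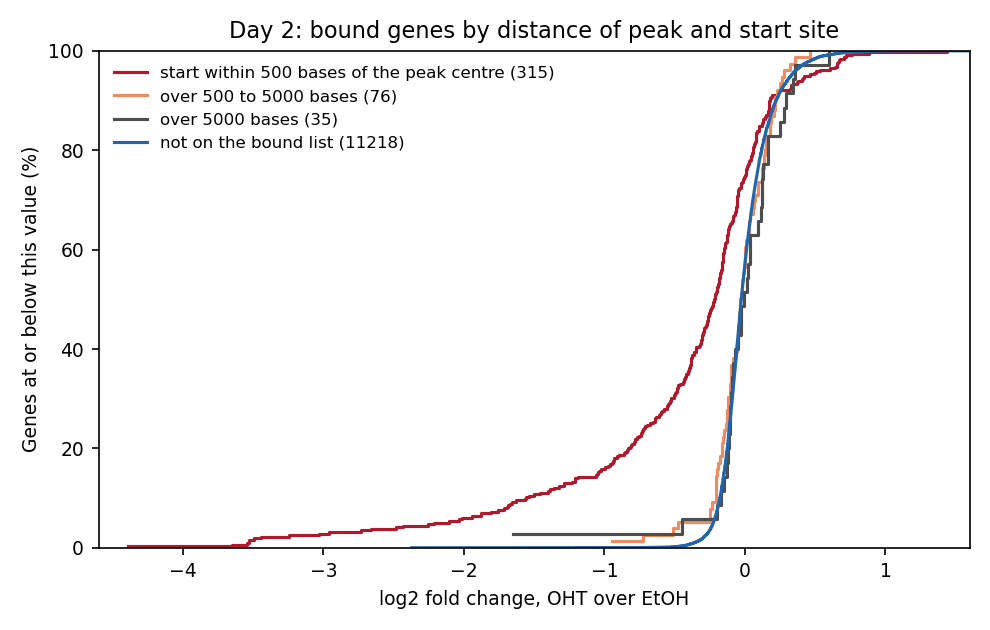
Cumulative share of genes (vertical, percent) at or below a log2 fold change (horizontal, OHT over EtOH) for bound genes by the distance from the peak centre to the nearest start, and for genes not on the list. The curve of the 315 genes within 500 bases lies to the left of the others over the lower values (median -0.22), and the curves of the 76 genes from over 500 to 5000 bases and the 35 beyond run close to that of the 11218 other genes.

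The motif letters were present in bound genes of every response. The shorter form was in 22 of 37 peak-overlapping windows of genes over 2-fold lower (59.5%), 54 of 101 of other lower genes (53.5%), 37 of 81 of genes not called (45.7%) and 12 of 18 of genes called higher (66.7%). Only 30 of the 52 genes had such a window in the RefSeq table. For the longer form the shares were 16.2%, 16.8%, 21.0% and 27.8%.

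Several genes over 2-fold lower share their peak with another gene. Both starts lay within 500 bases of the centre of 1 peak for 32 pairs of tested genes, all on opposite strands. Both genes were lower in 8 pairs, 1 was lower and its partner not called in 10, and 1 was lower and its partner higher in 7, while 2 pairs had 1 gene higher and the partner not called and 5 had no call. Of all 315 tested genes with a start within 500 bases of a peak centre, 56.5% were lower and 10.2% higher. Whether the pairs differ from these shares was not tested. *Prdx2* fell as given above, whereas *Rnaseh2a*, a subunit of an RNase that removes ribonucleotides from DNA, had 3043, 3108 and 2987 with EtOH and 3084, 3017 and 3111 with OHT (log2 fold change 0.011, SE 0.05, DESeq2 adjusted p = 0.925). *Fam173b*, a mitochondrial methyltransferase, fell from 309, 368 and 323 to 73.5, 70.0 and 89.9, and *Cct5*, a subunit of the chaperonin that folds actin and tubulin, by far less, from 37163, 37612 and 36884 to 31473, 31439 and 32247. These correspond to log2 fold changes of -2.10 (SE 0.16) and -0.23 (SE 0.03).

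*Ptcd2*, a mitochondrial RNA-processing factor, fell from 1911, 1729 and 1738 to 751, 806 and 771 (log2 fold change -1.21, SE 0.07), and the partner *Mrps27*, a mitochondrial ribosomal protein gene, was 2099, 2053 and 1962 with EtOH and 2361, 2303 and 2243 with OHT (0.18, SE 0.05, DESeq2 adjusted p = 0.0129). The call of *Mrps27* was lost without Day2_EtOH replicate 2 or 3 or without Day2_OHT replicate 1 or 2, at adjusted p from 0.0515 to 0.0806. *Timm17b* (-1.04) was paired with *Pqbp1*, a splicing-related protein (-0.38, SE 0.07). A start farther from the peak was involved in 3 further pairs with a gene over 2-fold lower. *Mpst* shared its peak with *Tst*, the related sulfurtransferase rhodanese (696, 736 and 646 with EtOH, 401, 447 and 407 with OHT, log2 fold change -0.73, SE 0.09), *Ndst2* with *Camk2g* (0.0565, SE 0.07) and *Tmem198b* with *Dnajc14* (-0.059, SE 0.06). The test of the difference between partners was not run.

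**Figure D4:**
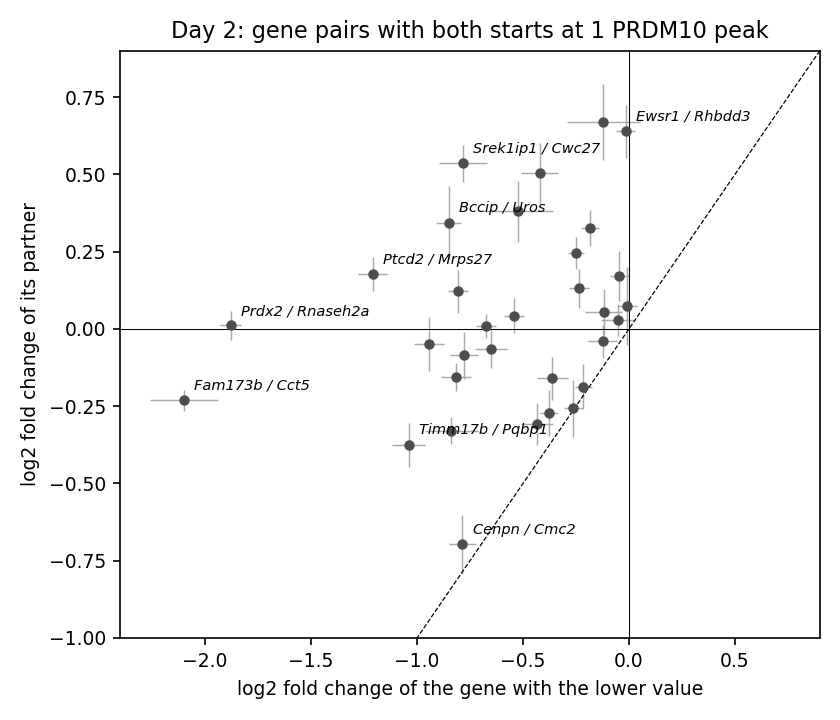
Log2 fold changes (OHT over EtOH, bars are SE) of 32 gene pairs whose starts both lie within 500 bases of the centre of 1 PRDM10 peak, with the lower value of each pair on the horizontal axis and its partner on the vertical one. *Prdx2* (-1.88) with *Rnaseh2a* (0.011) lies far from the dashed line of equality, and *Cenpn* (-0.79) with *Cmc2* (-0.70) lies close to it.

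Among bound genes that rose, *Prdm10* aside, *Arl2*, a small GTPase of tubulin folding, had the largest change, from 622, 663 and 644 to 1224, 1192 and 1145 (log2 fold change 0.89, SE 0.07, DESeq2 adjusted p = 1.77e-30). Chosen after their values were seen, *Paxip1*, a DNA damage response factor, went from 2205, 2263 and 2232 to 3510, 3609 and 3810 (0.71, SE 0.05), and *Akt2*, a kinase of insulin signalling, from 1230, 1228 and 1234 to 1901, 1943 and 2005 (0.66, SE 0.06). In all 3 the libraries labelled OHT lay above the others. Of the 46 bound genes called higher, 24 were called higher in each of the 13 alternative fits.

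Cholesterol synthesis and uptake and ATF4 targets had the most negative medians of the pathway lists, in an order that turned without Day2_EtOH replicate 2 or Day2_OHT replicate 3. Cells make cholesterol from acetyl-CoA through mevalonate and squalene, and the genes are switched on together by SREBP2 when sterols are low. All 25 genes tested had a log2 fold change below 0, with a median of -0.27 against -0.028 over all genes tested, and 17 were called lower against a background of 10.6%. None was called higher by DESeq2 (0 at an unadjusted p under 0.05 and 0 by edgeR). *Msmo1*, a sterol demethylase step, fell from 5691, 5580 and 5777 to 4147, 3911 and 3840 (log2 fold change -0.52, SE 0.05), *Cyp51*, the lanosterol demethylase, from 3428, 3381 and 3488 to 2455, 2348 and 2404 (-0.51, SE 0.05), and *Idi1*, which isomerises isopentenyl diphosphate, from 5684, 5489 and 6091 to 4253, 4343 and 3743 (-0.48, SE 0.06). *Pmvk*, which phosphorylates mevalonate 5-phosphate, was the only bound member and fell furthest, from 1490, 1460 and 1577 to 736, 720 and 867 (-0.96, SE 0.08). The groups did not overlap in any of the 4. Across the alternatives 15 to 17 members were lower and the median lay between -0.31 and -0.23.

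Genes of amino acid supply fell together as well. Targets of ATF4, the transcription factor of the integrated stress response, had a median of -0.25, with 18 of 26 lower and none higher by DESeq2 (0 at an unadjusted p under 0.05 and 0 by edgeR), and none of them was bound. *Cth*, the last enzyme of transsulfuration, fell from 691, 669 and 657 to 533, 469 and 400 (log2 fold change -0.52, SE 0.10), and the proline synthesis genes *Pycr1* (-0.47, SE 0.10) and *Aldh18a1* (-0.42, SE 0.05) also fell. *Chac1*, which degrades glutathione, changed by -0.50 (SE 0.17, DESeq2 adjusted p = 0.0227), and its call was lost without Day2_EtOH replicate 1 or 3 or Day2_OHT replicate 2. The call was also lost without the length trend described below (DESeq2 adjusted p = 0.051) and with the replicate number as a block (0.0817). Cytosolic aminoacyl-tRNA synthetases, which charge tRNAs, had a median of -0.17, with 14 of 20 lower, led by *Nars* (11717, 11460 and 11686 against 8985, 9131 and 9153, log2 fold change -0.35, SE 0.04), *Sars* (-0.32, SE 0.04), *Cars* (-0.29, SE 0.05) and *Lars* (-0.28, SE 0.04), of which only *Lars* was bound. The counts of lower members ranged from 12 to 20 for ATF4 targets and from 9 to 14 for the synthetases across the alternatives. Several synthetase genes are themselves known ATF4 targets, so that these lists are not independent. Chaperones of the endoplasmic reticulum and the unfolded protein response, a neighbouring stress pathway, had 9 of 22 lower (median -0.13), among them *Syvn1* (-0.53, SE 0.14), *Herpud1* (-0.28, SE 0.08) and *Xbp1* (-0.24, SE 0.05). *Syvn1* lost its call without Day2_EtOH replicate 2 (DESeq2 adjusted p = 0.0623), and *Herpud1* without Day2_EtOH replicate 1 (0.0821) or Day2_OHT replicate 2 (0.0554). The count of lower genes was 3, 5 and 4 without Day2_EtOH replicate 1, Day2_EtOH replicate 2 and Day2_OHT replicate 2.

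Lysosomal proteins moved the other way, with 15 of 34 higher against a background of 9.17% and a median of 0.12. None was called lower by DESeq2 (0 at an unadjusted p under 0.05 and 0 by edgeR). *Lamp2*, a membrane protein of the lysosome, rose from 1410, 1505 and 1597 to 1962, 2126 and 1988 (log2 fold change 0.43, SE 0.06), and *Hexa*, a hexosaminidase, from 996, 890 and 854 to 1197, 1214 and 1217 (0.40, SE 0.07). The proteases *Tpp1* (0.39, SE 0.08) and *Ctsa* (0.34, SE 0.06) rose by similar amounts. Across the alternatives 11 to 20 members were higher and the median stayed between 0.11 and 0.17. *Flcn* fell in the same libraries as given above. In its list of partners, TFE factors and Rag GTPases, which include regulators of lysosomal genes, 3 of 15 were higher and 4 lower (20% and 26.7%, against 9.17% and 10.6% of all genes). *Rragd* was higher (0.27, SE 0.06) and *Mitf* lower (-0.22, SE 0.06, a call lost without Day2_EtOH replicate 1 or 2). The list had 1 lower without Day2_EtOH replicate 1, 3 without Day2_EtOH replicate 3 and 2 with any other library left out.

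**Figure D5:**
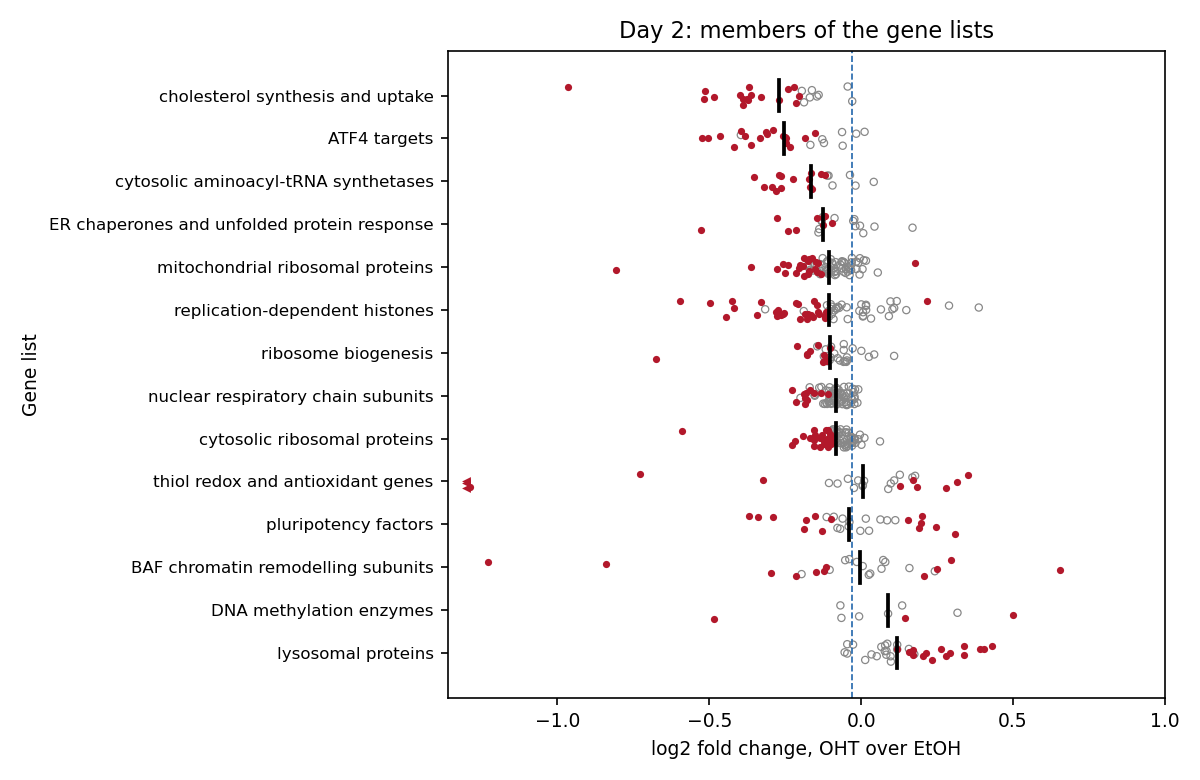
Log2 fold changes (horizontal, OHT over EtOH) of the tested members of 14 gene lists, filled where the DESeq2 adjusted p was below 0.05 and open elsewhere, with a black bar at each median, a dashed line at the median of all 11644 genes (-0.028) and arrows for members below -1.3. Cholesterol and ATF4 genes sit left of the dashed line almost to the last member, lysosomal genes sit mostly to the right, and redox, BAF and DNA methylation genes spread to both sides.

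Ribosomal and respiratory chain genes shifted little. Cytosolic ribosomal proteins had a median of -0.082 with 27 of 79 lower, which turned to 0.012 with 3 lower and 3 higher once a trend with transcript length was removed, and only *Rpl19*, which is bound, stood apart, from 70313, 70672 and 68002 to 45288, 46612 and 46884. Mitochondrial ribosomal proteins had 22 of 79 lower (median -0.11, -0.036 without the trend), with the bound *Dap3* (-0.81, SE 0.05) furthest. All 74 nuclear respiratory chain genes lay below 0, yet the median was -0.083, 11 were lower, and the median became -0.008 without the trend. Ribosome biogenesis had 12 of 34 lower (median -0.10), led by the bound *Polr1a*, the largest subunit of RNA polymerase I (6790, 7203 and 6887 against 4263, 4272 and 4543, log2 fold change -0.68, SE 0.05). Replication-dependent histone genes, which are short and near-identical so that reads are shared between them, had 28 of 65 lower and 1 higher (median -0.11). That split became 11 lower and 8 higher without the trend. Leaving out Day2_EtOH replicate 1, Day2_EtOH replicate 2 or Day2_OHT replicate 2 brought the lower counts to 7, 8 and 9 for cytosolic ribosomal proteins, 8, 9 and 11 for mitochondrial ones, 5, 4 and 6 for the respiratory chain and 16, 17 and 18 for histones, while without Day2_EtOH replicate 3 cytosolic ribosomal proteins had 41. Ribosome biogenesis had 5 and 7 lower without Day2_EtOH replicate 1 and 2.

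Shares of lower genes fell with transcript length across all genes, from 14.9% of the shortest 2329 (up to 1389 bases) to 5.93% of the longest 2329 (from 3921 bases), while shares of higher genes rose from 2.23% to 23.4%. Medians of log2 fold change ran from -0.077 to 0.059, and after the trend was removed they lay between -0.022 and 0.003. Whether transcript length plays a part in the small changes of short and long genes was not tested. The cholesterol list had a median of -0.31 and ATF4 targets one of -0.26 after removal, and lysosomal genes one of 0.17.

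Other lists are read beside the 10.6% of all genes that were lower and the 9.17% that were higher. Among translation factors, 5 of 14 eIF3 subunits (median -0.095), 5 of 12 eIF4 factors and 4E-BPs (with 3 higher, median -0.088) and 3 of 13 elongation and termination factors (median -0.077) were lower, with *Eif3b* and *Eef1d* the furthest. Those of eIF3 and eIF4 came to 2 to 5 and 1 to 7 with a library left out, lowest without Day2_OHT replicate 1 and Day2_EtOH replicate 2. Of 32 proteasome subunits 7 were lower (median -0.088), of 22 glycolysis genes 7 lower and 2 higher (median -0.066), and of 13 small nucleolar RNA host transcripts 4 lower (median -0.096), and these counts of lower genes were 2, 3 and 1 without Day2_EtOH replicate 1. Of 48 DNA replication genes 6 were lower (12.5%) and 1 higher (median -0.052, 3 lower without Day2_EtOH replicate 1), and of 35 genes of mitosis 3 lower (8.57%, and 1 without Day2_EtOH replicate 1) and 1 higher (median -0.027), with *Cenpn*, a centromere protein and a bound gene, at -0.79 (SE 0.06). The BCL2 family and caspases had 2 of 24 lower (8.33%, median -0.012). The shares of lower genes in these 3 lists lie near the background. Their shares of higher genes, 2.08% for replication, 2.86% for mitosis and 0% for the BCL2 family and caspases, lie below the 9.17% of all genes. In the BCL2 and caspase list 1 gene was higher at an unadjusted p under 0.05 and 3 by edgeR. The 13 mRNAs of the mitochondrial genome had 3 lower and 2 higher, and their median of -0.036 turned to 0.002 with total counts and to 0.11 without the length trend. Besides *mt-Co3*, the lower ones were *mt-Nd6* (-0.40, SE 0.08) and the abundant *mt-Co1*, while values in the list ran up to 0.465. *mt-Co1* fell from 339842, 340345 and 326501 with EtOH to 257539, 258251 and 263834 with OHT (log2 fold change -0.37, SE 0.03). Only 3 of 20 germ layer markers passed the minimum mean, with *Nes* lower (-0.20, SE 0.07), a call that was lost with any library but Day2_OHT replicate 3 left out.

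Chromatin regulators changed gene by gene. Counts in this paragraph are read beside the 10.6% of all genes that were lower and the 9.17% that were higher. *Dnmt1*, the maintenance DNA methyltransferase and a bound gene, fell from 10756, 10964 and 11002 to 7725, 7852 and 7821 (log2 fold change -0.48, SE 0.04), and *Tet1*, which oxidises methylcytosine, was 13882, 16161 and 17838 with EtOH and 21917, 22129 and 23693 with OHT (0.50, SE 0.11, and 0.33 without the length trend). Of 24 BAF remodelling subunits 7 were lower (4 if either of Day2_EtOH replicates 1 and 2 or Day2_OHT replicate 2 was left out) and 4 higher, with *Ss18* from 4772, 4600 and 4527 to 2004, 2032 and 1895, its bound paralogue *Ss18l1* at -0.84 (SE 0.13) and *Arid1a* at 0.66 (SE 0.18). Among HDAC complex genes 5 of 25 were lower and 5 higher (3, 2 and 3 without Day2_EtOH replicate 1, Day2_EtOH replicate 2 and Day2_OHT replicate 3). In the PRDM family 3 of 9 tested genes were higher, *Prdm10*, *Prdm1* and *Prdm2*. *Prdm1* lost its call with any library left out and *Prdm2* without Day2_EtOH replicate 1, and neither was called without the length trend, where the median of 0.25 became 0.11. Of 9 DNA methylation enzymes 2 were higher (against 9.17% of all genes, and 1 to 3 with a library left out, 1 without Day2_EtOH replicate 2, Day2_OHT replicate 2 or Day2_OHT replicate 3 and 3 without Day2_EtOH replicate 3) and 1 lower, and the median of 0.089 turned to -0.009 without that trend. Imprinted genes had 3 of 20 higher and 3 lower (15% each, median -0.013). The imprinted *Peg10* (0.77, SE 0.14) and *Kcnq1ot1* (0.66, SE 0.19) were higher. *Kcnq1ot1* came to 0.061 without the length trend (DESeq2 adjusted p = 0.521) and lost its call without Day2_EtOH replicate 2 (0.0719) or Day2_OHT replicate 3 (0.0663). *Arid1a*, *Tet1*, *Peg10* and *Kcnq1ot1* are long transcripts whose EtOH libraries also differed among themselves, as in *Arid1a* with 1359, 1630 and 1964.

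Pluripotency and signalling genes changed modestly. Of 27 pluripotency factors 8 were lower (3, 4 and 3 without Day2_EtOH replicate 1, Day2_EtOH replicate 2 and Day2_OHT replicate 2) and 6 higher, against 10.6% and 9.17% of all genes, with *Dppa3* (1617, 1591 and 1660 against 1289, 1251 and 1230, log2 fold change -0.37, SE 0.06), *Gbx2* (-0.34, SE 0.12) and *Sox2* (-0.29, SE 0.04) lower and *Tbx3* higher (0.31, SE 0.06). *Gbx2* lost its call in 10 of 13 alternative fits, among them those without any 1 library but Day2_OHT replicate 1. *Pou5f1* (-0.13, SE 0.04, a call lost without Day2_EtOH replicate 1, Day2_EtOH replicate 2 and Day2_OHT replicate 2) and *Klf4* (-0.078, SE 0.05, DESeq2 adjusted p = 0.278) differed little, and *Nanog* overlapped between the groups. *Zic2*, a marker of the formative state, fell (-0.51, SE 0.12). Among 20 immediate early and feedback genes of ERK signalling 4 were higher and 5 lower, with *Dusp1*, a phosphatase of MAP kinases, from 443, 407 and 439 to 656, 667 and 621 (0.59, SE 0.09) and *Fosb* (0.49, SE 0.11) and *Spry4* (0.36, SE 0.06) also higher. *Trp53* rose from 4091, 4174 and 4732 to 5400, 5389 and 5404 (0.32, SE 0.05), while 4 of the 25 genes in the list of p53 and its targets were higher, *Trp53* itself included, and 4 lower. With a library left out, 4 or 5 ERK genes were higher, whereas the lower ones numbered 1 without Day2_OHT replicate 3 and 2 without Day2_EtOH replicate 1 or 2. The higher p53 genes numbered 2 with any library but Day2_OHT replicate 3 left out, and the lower ones 1 without Day2_EtOH replicate 1 or 2.

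Apart from *Prdm10*, the genes that rose over 2-fold were of low abundance. *Lrrc75a* went from 127, 130 and 127 to 249, 271 and 251 (log2 fold change 1.00, SE 0.15, DESeq2 adjusted p = 5.77e-10). *Lrrc75aos2*, a bound transcript on the opposite strand within it, named after its value was seen, fell from 603, 592 and 616 to 299, 336 and 303 (-0.95, SE 0.10), and how the counting treated strand is not given in the sources used here. *Pakap* had 26.2, 87.2 and 21.7 with EtOH and 152, 247 and 253 with OHT (2.27, SE 0.66, and over 1.5 times smaller with effective lengths as offsets), with a posterior SD of up to 57.6 counts from shared reads and a call that was lost without Day2_EtOH replicate 1, Day2_OHT replicate 2 or Day2_OHT replicate 3 (adjusted p 0.0638, 0.0632 and 0.0631). Below the line, the next highest genes outside the annotation class described below were *Mid1* (0.96, SE 0.15), *Ahnak2* (0.91, SE 0.12), *Anpep* (0.89, SE 0.20), *Arl2* and *Parvb* (0.88, SE 0.12, and 0.47 with effective lengths as offsets).

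The other 4 of the 7, *Gm44822* (1.16, SE 0.20), *Gm37978* (1.09, SE 0.21), *Gm48706* (1.08, SE 0.23) and *Gm45221* (1.05, SE 0.21), belong to the class TEC, transcripts that await experimental support. *Gm44822* had 65.5, 73.8 and 86.7 with EtOH and 149, 149 and 207 with OHT. Each lies on the same strand inside a coding gene, *Prmt3* (0.069, SE 0.05), *Snd1* (0.016, SE 0.05), *Cdyl* (-0.10, SE 0.06) and *Picalm* (-0.12, SE 0.05) in that order. Of 94 TEC genes tested, 34 (36.2%, against 9.17% of all genes) were higher and none lower by DESeq2 (2 at an unadjusted p under 0.05 and 2 by edgeR), and their median of 0.28 was the same without the length trend. Of these, 77 lay within a tested coding gene of the same strand, and 69 of the 77 had a higher log2 fold change than that gene, the median of the 66 coding genes being 0.018. All TEC genes together took 0.101%, 0.111% and 0.124% of the expected counts with EtOH and 0.143%, 0.149% and 0.155% with OHT, which do not overlap. Reads from unspliced coding transcripts and from TEC genes cannot be told apart in these files.

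The genes over 2-fold at Day 2 were followed in the separate Day 4 libraries, 3 per label of the same line, where 21.7% of 11555 genes were called lower and 23.5% higher. Of the 52 genes over 2-fold lower, 51 were called lower at Day 4, 49 of them over 2-fold, and 44 of the 52 had a more negative value than at Day 2. The remaining gene, *Frat2*, was also lower at Day 4, with means of 191 with EtOH and 5.56 with OHT (-5.11, SE 0.39). It was not called because its mean over the Day 4 libraries lay below the minimum mean. The median log2 fold change of the 52 genes was -1.69 at Day 2 and -2.49 at Day 4. *Uchl1* went from -1.36 to -3.21 (SE 0.07) and *Dut* from -2.04 to -2.62 (SE 0.05), whereas *Ss18* had -1.23 on both days. Of the 7 genes over 2-fold higher, *Prdm10* (1.21, SE 0.06) and *Lrrc75a* (1.95, SE 0.11) were called higher at Day 4. The difference between the days was not tested for these genes.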

How the data were processed

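Total RNA was sequenced as stranded paired libraries. The authors aligned reads to GRCm38.p6 with STAR (2.6.0c), and the deposited gene tables give the expected count and TPM of each of 54146 genes from RSEM against GENCODE. How the counting treated strand is not given in the sources used here. Deposited tables of the authors' own DESeq2 (1.22.2) comparisons hold fold changes and p-values, of which only the gene symbols were used (54079 genes matched).

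After rounding, the expected counts were tested per day in DESeq2 (1.42.0, R 4.3.3) between the 3 libraries of each label, scaled by median of ratios, with independent filtering at an alpha of 0.1. Genes with a mean normalised count above 100 were tested and called at an adjusted p (Benjamini-Hochberg) below 0.05, and fold changes are unshrunken. TPM served only for the marker sums. Alternatives were edgeR (4.0.16), TMM or total-count scaling, effective lengths as offsets, removal of a loess trend of each library on gene length (span 0.3, pseudocount 0.5), the replicate number as a block, no minimum mean, and each library left out. The depth of 35017667 to 41409992 expected counts per Day 2 library sets the counting error, and SEs also cover the spread between libraries.

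The members, gene lists and tests were chosen with earlier results of these data known. Named genes are *Prdm10*, 10 genes chosen from the study, all called genes over 2-fold, the 15 highest called genes whose groups do not overlap, the 4 called members of each list with the largest changes, and genes that share a PRDM10 peak with a gene over 2-fold lower. A gene outside these rules is said to have been chosen after its values were seen, or is named as a neighbour of a threshold, a host or a pair shown in a plot. The list of PRDM10-bound genes (633, of which 627 were in the files) and its peaks are the study's, from ChIP-seq.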

Additional observations from a re-analysis of the deposited data

How the results depend on the processing

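Most results kept their direction. Of the counts of called genes under the alternatives, 85 were within 1.5 times the value reported and 13 were not. With total counts 638 genes were lower, and with no minimum mean 82 were over 2-fold higher. With the replicate block 658 genes were higher and 659 lower, and 544 and 586 with the length trend also removed. The replicate numbers were not taken to pair the libraries. Deviations of same-numbered libraries from their group means correlated at 0.149, 0.105 and -0.080 across genes. Day2_EtOH replicates 1 and 2 correlated best with their own number, and Day2_EtOH replicate 3 with Day2_OHT replicate 2 (0.269). Deviations from a mean of 3 libraries depend on each other, so these correlations cannot decide whether the numbers pair the libraries. With 1 library left out, 615 to 1052 genes were higher, 586 to 1122 lower, and 2 to 16 over 2-fold higher. Of the values of single named genes, 2253 kept direction and side of the threshold, 293 lost the call, and *Cenpf* reversed to -0.0474 without the length trend and to -0.0478 with the replicate block as well. Medians of lists moved by more than the spread in 136 cases and by less in 319. The cause of these changes was not tested. Leaving out a library also lowers the number of libraries, and these effects were not separated.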
